A study of Mus musculus with 18 samples.

Results

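The G1 control genes examined here were the 3 D cyclins (*Ccnd1*, *Ccnd2*, and *Ccnd3*), their kinase partners *Cdk4* and *Cdk6*, the kinase inhibitors *Cdkn1a*, *Cdkn1b*, and *Cdkn2c*, and the transcription factor *Myc*. They were chosen by symbol, and all 9 were found among the 55491 genes of the count table. B cells were enriched from the spleen and Peyer's patches (PP) of female BALB/cJ mice by negative magnetic selection, and poly(A) RNA was sequenced in 18 libraries. Every mouse, controls included, had been sensitized i.p. to ovalbumin (OVA) with 20 µg OVA and 1 mg alum on days 0 and 14. On days 28 and 42 the mice received i.v. OVA-loaded nanoparticles (OVA NPs; 2.5 mg of particles), soluble OVA (sOVA; 100 µg), or PBS (100 µL), and on day 44, at 10 to 12 weeks of age and before any oral challenge, the cells were collected. Each of the 6 tissue-by-treatment groups had 3 libraries labeled as biological replicates. The labels do not say whether a library held cells of 1 mouse or of several, nor whether spleen and PP libraries with equal numbers came from the same animal.

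Progression from G1 into S phase is driven by D cyclins bound to CDK4 or CDK6, which phosphorylate RB and thereby free E2F factors to switch on replication genes. Inhibitors of the INK4 family such as p18 (*Cdkn2c*) block CDK4 and CDK6 directly, whereas the CIP/KIP proteins p21 (*Cdkn1a*) and p27 (*Cdkn1b*) act mainly on cyclin E and cyclin A complexes. In B cells, cyclin D2 is known for its induction by antigen receptor signals, cyclin D3 for its requirement in germinal center expansion, and Myc for its brief appearance in germinal center cells selected to divide again.

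Levels below are read counts relative to library size (CPM) scaled with trimmed mean of M values (TMM) factors over all 18 libraries, whose totals ran from 14177253 to 30052297 counts. A value of 3 counts corresponded to between 0.0998 and 0.212 CPM, and this limit covers counting error only. Differences are log2 fold changes ± SE from edgeR's quasi-likelihood test (n = 3 against 3). A gene was called when its Benjamini-Hochberg adjusted p over all tested genes was under 0.05 and its absolute log2 fold change exceeded 0.25. The B cell markers *Ms4a1*, *Cd79a*, *Cd79b*, and *Pax5* were abundant in every library, at 945 to 1472, 902 to 1918, 700.2 to 1577, and 859 to 1505 CPM. Mitochondrial transcripts took 2.82% to 3.41% of the counts in spleen and 4.97% to 9.80% in PP, where they were highest in the OVA NP group (9.08% to 9.80%).

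In splenic B cells, each form of OVA moved 5 of the 9 genes. After OVA NPs, *Ccnd2*, *Ccnd3*, *Cdk4*, and *Cdkn2c* rose and *Cdkn1b* fell, against a background of 15% of the 14200 tested genes called. After sOVA, *Ccnd2*, *Ccnd3*, *Cdk4*, and *Cdkn2c* rose and *Cdkn1b* fell, with 17.2% of 14128 genes called. The NP and sOVA comparisons share their PBS libraries, so they are not independent of each other and their agreement is not a result. In PP, sOVA moved 8 of the 9 genes, of which *Ccnd3*, *Cdk4*, *Cdk6*, and *Cdkn2c* rose and *Ccnd1*, *Ccnd2*, *Cdkn1b*, and *Myc* fell, with 27.4% of 15792 genes called. For OVA NPs against PBS in PP, none of the 9 genes was called by edgeR or by DESeq2, and 1, *Cdkn1a*, had an unadjusted p under 0.05. In that comparison edgeR called 0 of 15798 genes, a background of 0%, with 1573 genes at an unadjusted p under 0.05, while DESeq2 called 149 genes. In these bulk samples, fewer cells that express a gene and less of its RNA per cell cannot be told apart.

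Counts of called genes depended on single libraries in part of these comparisons. Without spleen OVA NP replicate 1, 3 of the 9 genes were called in the splenic NP comparison. Without PP PBS replicate 3 or PP sOVA replicate 3, 5 of 9 were called for sOVA in PP.

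**Figure D1:**
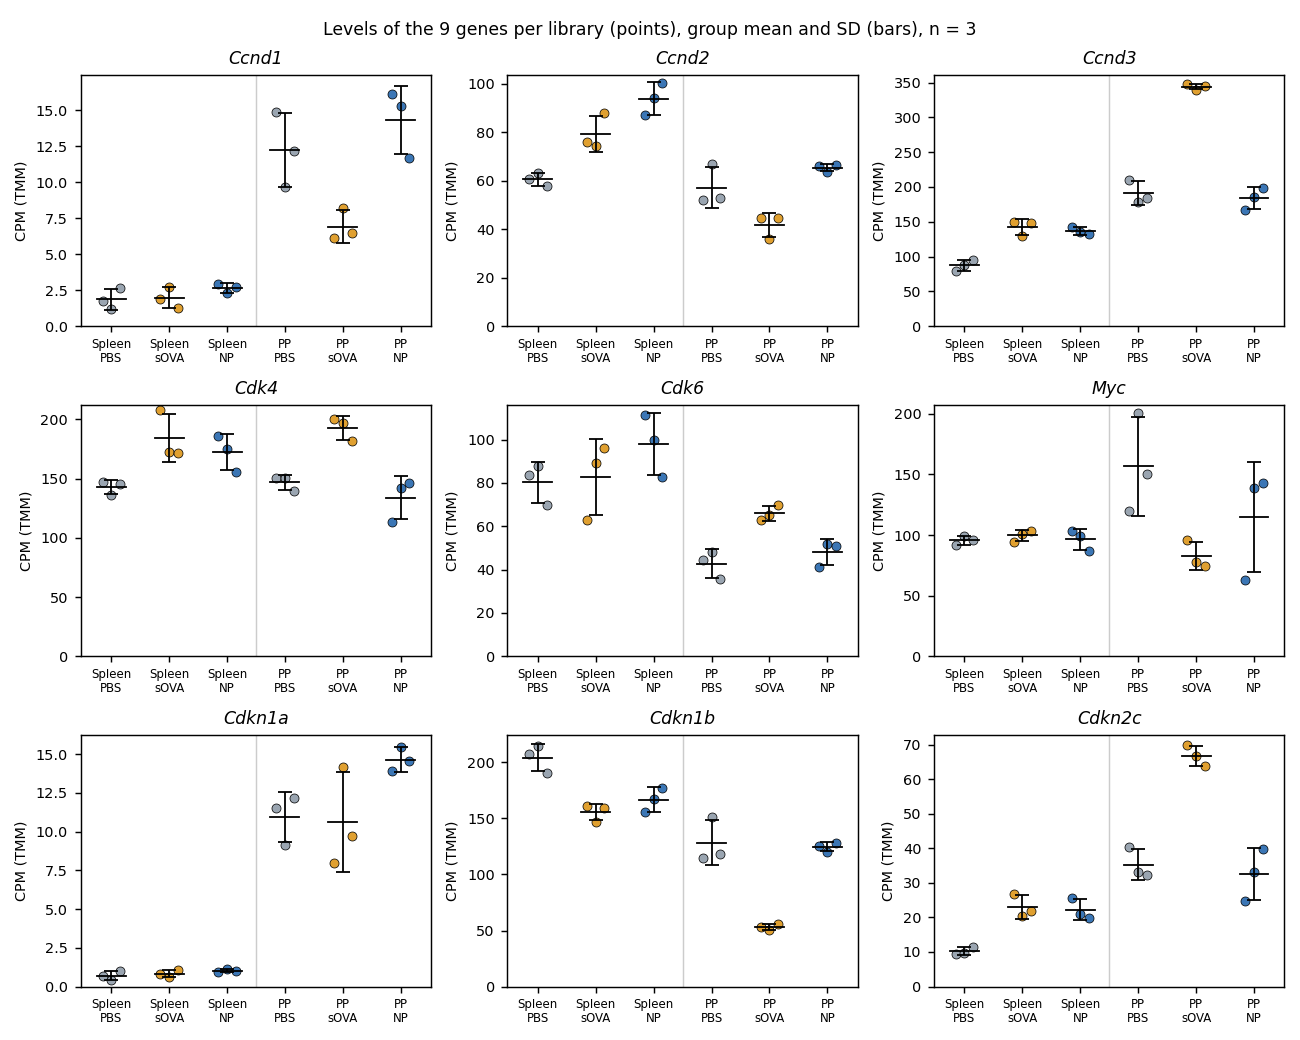
Levels of the 9 genes in CPM (vertical axes, linear from 0) in each of the 18 libraries (points), with the group mean and SD (horizontal line and bars, n = 3) for spleen and PP after PBS, sOVA, or OVA NPs. *Ccnd3* and *Cdkn2c* were highest and *Cdkn1b* lowest in the 3 PP sOVA libraries, and *Ccnd1* and *Cdkn1a* were low in all spleen libraries.

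*Ccnd3*, which encodes cyclin D3 (ENSMUSG00000034165, GRCm38 chromosome 17, 47505051 to 47599691, plus strand), was the most abundant D cyclin per unit of transcript length. In spleen its level was 79.0, 88.0, and 95.3 CPM after PBS, 149.5, 129.4, and 147.6 CPM after sOVA, and 142.4, 135.1, and 132.3 CPM after OVA NPs. Every OVA-treated spleen library was above every PBS library, while the sOVA and NP ranges overlapped. *Ccnd3* rose by 0.65 ± 0.07 after OVA NPs (adjusted p = 1.98e-05) and by 0.70 ± 0.08 after sOVA (adjusted p = 1.89e-05). In PP it was at 210.6, 179.1, and 183.6 CPM after PBS, 347.9, 339.9, and 344.5 CPM after sOVA, and 166.9, 185.5, and 199.0 CPM after OVA NPs. The sOVA libraries stood clear of both other PP groups, which overlapped each other. *Ccnd3* rose by 0.84 ± 0.08 after sOVA (adjusted p = 1.35e-04), and its NP-versus-PBS difference was -0.05 ± 0.08 (adjusted p = 0.870).

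*Ccnd2*, which encodes cyclin D2 (ENSMUSG00000000184, chromosome 6, 127125162 to 127152193, minus strand), was called in opposite directions after sOVA in the 2 tissues. It is one of the genes that the study itself singled out in the splenic libraries, so its splenic NP difference is not independent evidence of a direction. In spleen it was at 60.6, 63.3, and 57.8 CPM after PBS, 75.9, 74.3, and 87.9 CPM after sOVA, and 86.9, 94.1, and 100.4 CPM after OVA NPs. Both OVA groups lay above PBS without overlap, and the highest sOVA library lay just above the lowest NP library. *Ccnd2* rose by 0.39 ± 0.07 after sOVA (adjusted p = 0.00193) and by 0.64 ± 0.06 after OVA NPs (adjusted p = 9.86e-06). In PP its level was 51.9, 66.9, and 52.7 CPM after PBS, 44.5, 35.8, and 44.7 CPM after sOVA, and 66.1, 63.7, and 66.3 CPM after OVA NPs. All sOVA libraries were below all PBS libraries, and the NP libraries lay within the PBS range. *Ccnd2* fell by 0.47 ± 0.12 on the log2 scale after sOVA (adjusted p = 0.0194), and this call was lost without PP PBS replicate 2 (-0.31, adjusted p = 0.0872), PP PBS replicate 3 (-0.47, adjusted p = 0.0506), PP sOVA replicate 2 (-0.32, adjusted p = 0.101), or PP sOVA replicate 3 (-0.46, adjusted p = 0.0655). After OVA NPs the difference from PBS was 0.21 ± 0.10 (adjusted p = 0.524).

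*Ccnd1*, which encodes cyclin D1 (ENSMUSG00000070348, chromosome 7, 144929931 to 144939925, minus strand), was the least abundant D cyclin. It held only 24 to 69 counts in the spleen libraries, at 1.7, 1.2, and 2.6 CPM after PBS, 1.9, 2.7, and 1.3 CPM after sOVA, and 2.9, 2.3, and 2.7 CPM after OVA NPs. These 3 groups overlapped, with differences from PBS of 0.08 ± 0.35 for sOVA (adjusted p = 0.903) and 0.52 ± 0.30 for OVA NPs (adjusted p = 0.243). In PP it reached 14.9, 9.7, and 12.1 CPM after PBS, 6.1, 8.2, and 6.5 CPM after sOVA, and 16.1, 15.3, and 11.7 CPM after OVA NPs. The sOVA libraries lay below both other groups, and *Ccnd1* fell by 0.84 ± 0.21 on the log2 scale against PBS (adjusted p = 0.0150). That call was lost without PP PBS replicate 1 (-0.67, adjusted p = 0.0740), PP PBS replicate 3 (-0.79, adjusted p = 0.0541), or PP sOVA replicate 3 (-0.73, adjusted p = 0.0743). After OVA NPs *Ccnd1* differed from PBS in PP by 0.24 ± 0.19 (adjusted p = 0.703). *Ccnd1* overlaps *LTO1* on the opposite strand, which held 12838 counts over the 18 libraries, and since the sources do not say whether counting used strand, reads of the pair may have been mixed. The same holds for *Ccnd3* with *Bysl* (14346 counts) and *Cdk4* with *Tspan31* (7829 counts).

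Because a long transcript collects more reads than a short one at equal abundance, the D cyclins were compared per kilobase of the longest coding transcript, 3740 bases for *Ccnd1*, 6330 for *Ccnd2*, and 2113 for *Ccnd3*. On this scale *Ccnd3* made up 80.4% ± 1.65 (SD, n = 3) of the D cyclin signal in PBS spleen, 83.7% ± 1.11 after sOVA, and 80.6% ± 1.61 after OVA NPs. In PP its share was 88.0% ± 1.3 after PBS, 95.1% ± 0.24 after sOVA, and 85.9% ± 1.57 after OVA NPs. The *Ccnd2* share was 18.7% ± 1.85 in PBS spleen, 15.6% ± 1.09 after sOVA, and 18.5% ± 1.64 after OVA NPs, so the NP-treated spleen differed from PBS by less than the replicate SD (-0.18 percentage points), although both genes had risen. In PP, *Ccnd2* made up 8.86% ± 1.77 after PBS, 3.84% ± 0.42 after sOVA, and 10.2% ± 0.78 after OVA NPs. The 3 sOVA libraries of PP (3.35% to 4.11%) lay below the PBS libraries (7.33% to 10.8%), a difference of -5.02 percentage points with p = 0.1 in a two-sided exact permutation test, the smallest p that 3 libraries against 3 can give. The exact p was 0.1 for sOVA against PBS in spleen and for NP against sOVA in both tissues, 0.8 for NP against PBS in spleen, and 0.3 for NP against PBS in PP. These 6 tests formed 1 family, in which no p could pass 0.05 even before adjustment. The shares depended on the length used. Per kilobase of all annotated exons, 4709 bases for *Ccnd1*, 9409 for *Ccnd2*, and 8775 for *Ccnd3*, the *Ccnd3* share was 59.2% ± 2.47 in PBS spleen, 64.6% ± 1.88 after sOVA, and 59.7% ± 2.47 after OVA NPs, and 71.5% ± 2.25, 86.9% ± 0.50, and 67.6% ± 2.94 in the corresponding PP groups. On that scale the *Ccnd2* share was 38.4% ± 3.04, 33.6% ± 1.88, and 38.2% ± 2.58 in spleen and 20.05% ± 3.65, 9.80% ± 1.05, and 22.5% ± 1.17 in PP. *Ccnd3* held the largest share in every library on both scales, and the *Ccnd2* share kept the direction of its difference in all 6 comparisons.

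**Figure D2:**
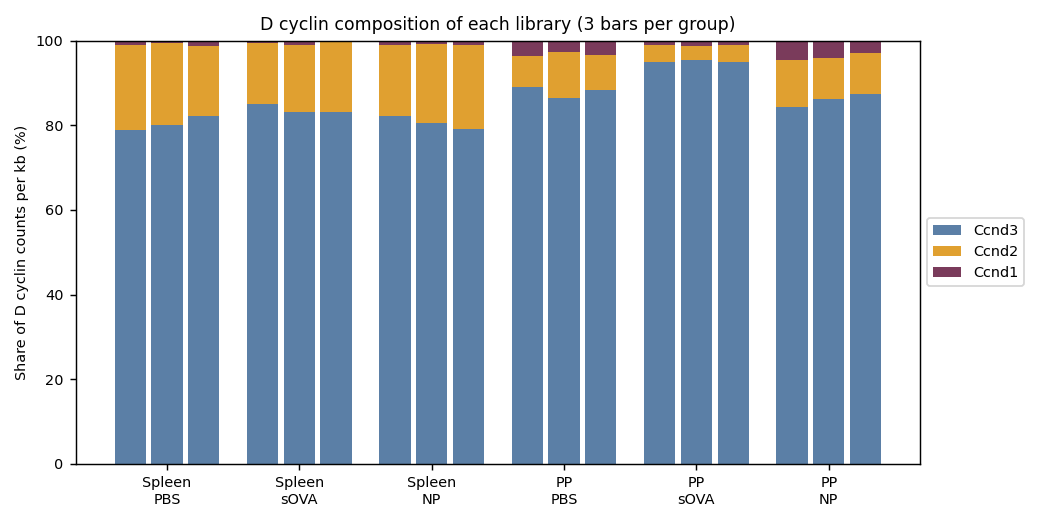
Share of each D cyclin (percent, vertical axis) in the summed counts per kilobase of the longest coding transcript of *Ccnd1*, *Ccnd2*, and *Ccnd3* in each library, 3 bars per group. On this length scale *Ccnd3* made up 78.8% or more of every bar and reached 94.9% to 95.4% in the 3 PP sOVA libraries.

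*Cdk4*, the main kinase partner of the D cyclins in these cells by length-scaled level (ENSMUSG00000006728, chromosome 10, 127063534 to 127067920, plus strand), had the smallest ratio of highest to lowest library among the 9 genes. In spleen it was at 147.2, 135.8, and 145.1 CPM after PBS, 207.6, 172.7, and 171.9 CPM after sOVA, and 186.3, 175.1, and 155.8 CPM after OVA NPs. All OVA-treated spleen libraries exceeded all PBS libraries. *Cdk4* rose by 0.37 ± 0.07 after sOVA (adjusted p = 0.00268) and by 0.28 ± 0.07 after OVA NPs (adjusted p = 0.00992). The NP call was lost without spleen PBS replicate 2 (0.24, adjusted p = 0.0662), spleen NP replicate 1 (0.21, adjusted p = 0.0385, under the fold cutoff), or spleen NP replicate 2 (0.27, adjusted p = 0.0558). In PP it was at 150.2, 150.9, and 139.6 CPM after PBS, 200.1, 197.1, and 181.4 CPM after sOVA, and 113.1, 142.2, and 146.1 CPM after OVA NPs. Again the sOVA libraries lay above PBS without overlap (0.38 ± 0.07, adjusted p = 0.00346), whereas the NP libraries overlapped PBS (-0.12 ± 0.09, adjusted p = 0.667).

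*Cdk6*, the other D cyclin kinase (ENSMUSG00000040274, chromosome 5, 3341485 to 3531008, plus strand), was called for sOVA in PP but not in spleen, although the difference between the tissues was itself not called (0.58 ± 0.22, adjusted p = 0.153). Its spleen levels were 83.8, 87.6, and 69.6 CPM after PBS, 62.9, 89.4, and 96.3 CPM after sOVA, and 111.2, 99.8, and 82.7 CPM after OVA NPs, with overlapping groups. The splenic sOVA difference was 0.04 ± 0.18 (adjusted p = 0.909). The splenic NP difference of 0.29 ± 0.14 (adjusted p = 0.218) crossed the threshold without spleen NP replicate 3 (0.40, adjusted p = 0.0194). In PP *Cdk6* was at 44.5, 48.3, and 35.5 CPM after PBS, 62.9, 65.3, and 69.9 CPM after sOVA, and 41.0, 51.9, and 51.1 CPM after OVA NPs. The sOVA libraries lay above both other groups, and *Cdk6* rose by 0.62 ± 0.11 against PBS (adjusted p = 0.00320). Its NP difference in PP was 0.18 ± 0.12 (adjusted p = 0.649).

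Upstream sequences were searched for words recognized by MYC, forkhead, and E2F factors. Of the 9 genes, 6 matched the RefSeq promoter table (GRCm38), with 9 windows in all. The 3 windows below are shown because they held a match, and each is the 250 bases before an annotated start, 5′ to 3′ on the gene's plus strand. The other 6 windows, which belong to *Cdkn1a*, *Cdkn1b*, *Cdkn2c*, and a second start of *Ccnd3*, held none of the words searched. Capitals mark CACGTG, the E-box that MYC-MAX dimers and related factors recognize, and TGTTTAC, the reverse complement of GTAAACA, a forkhead (FOXO-type) core. Both strands were searched, and CACGTG is its own reverse complement.
Cdk4 (chr10:127063285-127063534): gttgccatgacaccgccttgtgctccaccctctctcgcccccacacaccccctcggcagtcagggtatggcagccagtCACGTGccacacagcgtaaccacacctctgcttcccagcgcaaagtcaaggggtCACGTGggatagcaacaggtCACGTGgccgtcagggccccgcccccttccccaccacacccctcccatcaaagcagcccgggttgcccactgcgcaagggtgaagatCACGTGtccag
Cdk6 (chr5:3343643-3343892): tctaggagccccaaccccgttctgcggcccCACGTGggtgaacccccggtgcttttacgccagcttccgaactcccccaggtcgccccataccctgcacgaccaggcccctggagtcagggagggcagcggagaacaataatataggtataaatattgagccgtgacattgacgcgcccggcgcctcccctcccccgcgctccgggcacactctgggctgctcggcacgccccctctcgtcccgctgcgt
Ccnd3 (chr17:47504801-47505050): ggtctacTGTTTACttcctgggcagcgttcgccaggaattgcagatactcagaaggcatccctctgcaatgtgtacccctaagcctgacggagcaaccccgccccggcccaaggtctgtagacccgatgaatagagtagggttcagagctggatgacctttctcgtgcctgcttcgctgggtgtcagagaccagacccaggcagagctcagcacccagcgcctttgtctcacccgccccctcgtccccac

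The *Cdk4* window held 4 copies of CACGTG, whose first bases lay 172, 118, 98, and 11 bases before the start, and the *Cdk6* window held 1. CACGTG was present at least once in 6.02% of the 32851 promoter windows of the table, and 7 windows held 4 or more copies. GTAAACA on either strand was present in 3.17% of windows, and among the 9 windows of the 6 matched genes only in this *Ccnd3* window. The E2F-type words TTTGGCGC, TTTCCCGC, and TTTCGCGC, present in 0.417%, 0.895%, and 0.256% of all windows, were not found in the windows of the 6 matched genes. These matches describe the letters of the windows and do not show that a factor binds there.

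*Cdkn1b*, which encodes p27 (ENSMUSG00000003031, chromosome 6, 134920401 to 134925513, plus strand), fell in spleen after each form of OVA and in PP after sOVA. Spleen libraries held 207.2, 214.6, and 191.0 CPM after PBS, 161.0, 147.2, and 159.3 CPM after sOVA, and 155.7, 167.2, and 177.5 CPM after OVA NPs. The PBS libraries were above all OVA-treated libraries. *Cdkn1b* fell by 0.39 ± 0.06 on the log2 scale after sOVA (adjusted p = 7.14e-04) and by 0.29 ± 0.06 after OVA NPs (adjusted p = 0.00384). Without spleen NP replicate 1 the NP value was -0.24 (adjusted p = 0.0169), just under the fold cutoff. In PP it was at 114.9, 151.3, and 118.3 CPM after PBS, 53, 50.7, and 55.9 CPM after sOVA, and 125.8, 120.2, and 128.1 CPM after OVA NPs. The 3 sOVA values were under any other library of the series. *Cdkn1b* fell by 1.28 ± 0.11 after sOVA (adjusted p = 9.16e-05), while its NP difference from PBS was -0.03 ± 0.10 (adjusted p = 0.947).

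*Cdkn2c*, which encodes the CDK4/6 inhibitor p18 (ENSMUSG00000028551, chromosome 4, 109660876 to 109667189, minus strand), moved opposite to p27. Its spleen levels were 9.5, 9.8, and 11.5 CPM after PBS, 26.8, 20.3, and 22.0 CPM after sOVA, and 25.7, 21.1, and 19.9 CPM after OVA NPs. No OVA-treated library came near the PBS range. *Cdkn2c* had the largest splenic fold change of the 9 genes, 1.17 ± 0.12 after sOVA (adjusted p = 1.19e-05) and 1.11 ± 0.12 after OVA NPs (adjusted p = 2.54e-05). In PP it was at 40.3, 33.0, and 32.2 CPM after PBS, 69.8, 66.6, and 63.9 CPM after sOVA, and 24.6, 33.1, and 39.7 CPM after OVA NPs. The sOVA group stood apart (0.91 ± 0.10, adjusted p = 2.45e-04) and the NP group overlapped PBS (-0.11 ± 0.16, adjusted p = 0.832). Thus the inhibitor of CDK4 and CDK6 rose in the libraries in which p27 fell.

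*Cdkn1a*, which encodes the p53-inducible inhibitor p21 (ENSMUSG00000023067, chromosome 17, 29090976 to 29100727, plus strand), was low in spleen, with 10 to 26 counts per library. Spleen levels ran from 0.4 to 1.1 CPM in all 3 treatments and did not separate them, with differences from PBS of 0.24 ± 0.42 for sOVA (adjusted p = 0.734) and 0.53 ± 0.39 for OVA NPs (adjusted p = 0.380). In PP it was at 11.5, 9.2, and 12.2 CPM after PBS, 7.9, 14.2, and 9.7 CPM after sOVA, and 13.9, 15.5, and 14.5 CPM after OVA NPs. The NP libraries lay above the PBS libraries, one of 17.3% of tested genes whose groups did not overlap in that comparison, but the difference of 0.42 ± 0.15 was not called (adjusted p = 0.406). The sOVA libraries spread over both sides of the PBS range (-0.06 ± 0.23, adjusted p = 0.873).

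*Myc* (ENSMUSG00000022346, chromosome 15, 61985391 to 61990374, plus strand) was steady in spleen and variable in PP. Spleen levels were 91.4, 99.1, and 96.1 CPM after PBS, 94.6, 100.8, and 103.6 CPM after sOVA, and 103.7, 99.2, and 86.8 CPM after OVA NPs. The groups overlapped, with differences from PBS of 0.06 ± 0.06 for sOVA (adjusted p = 0.529) and 0.02 ± 0.07 for OVA NPs (adjusted p = 0.876). In PP *Myc* was at 119.6, 200.6, and 150.5 CPM after PBS, 96.2, 78.1, and 74.5 CPM after sOVA, and 62.6, 138.7, and 143.1 CPM after OVA NPs. PP NP replicate 1, at 62.6 CPM, was the lowest library of the series and lay apart from the other NP libraries, and the NP difference from PBS was -0.44 ± 0.37 (adjusted p = 0.724), or -0.16 (adjusted p = 0.898) without it. *Myc* fell by 0.93 ± 0.20 on the log2 scale after sOVA (adjusted p = 0.0181), a call lost without PP PBS replicate 3 (-0.91, adjusted p = 0.0719), PP sOVA replicate 2 (-0.83, adjusted p = 0.0913), or PP sOVA replicate 3 (-0.80, adjusted p = 0.0793).

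**Figure D3:**
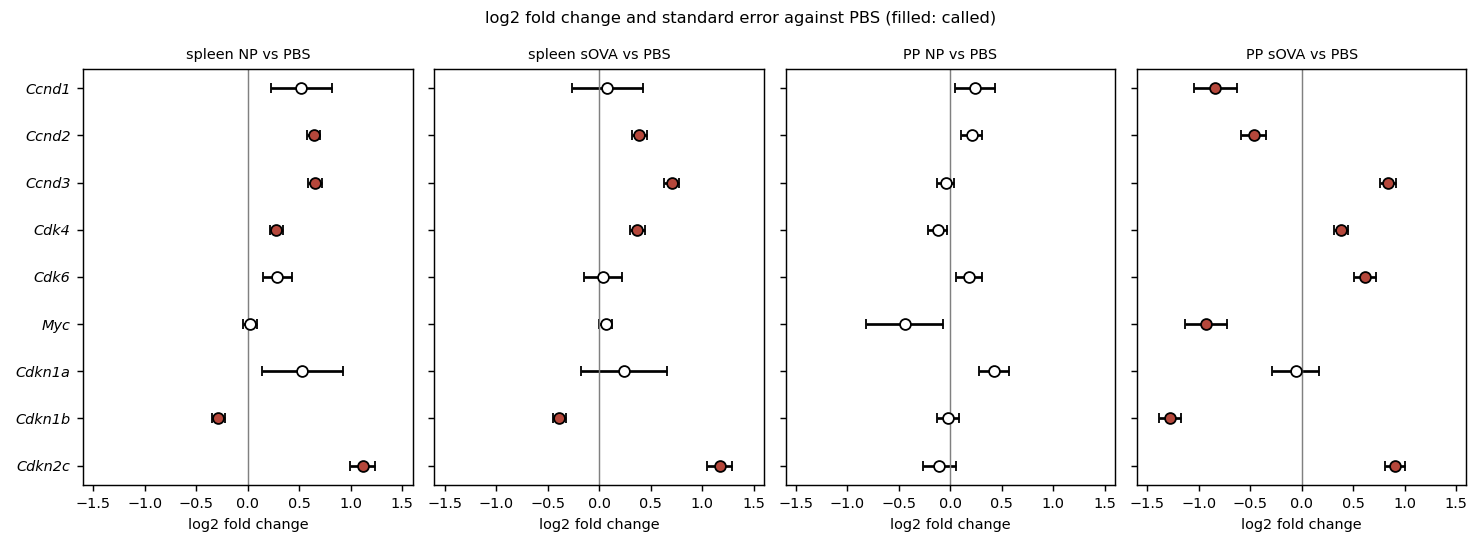
log2 fold changes (horizontal axis) of the 9 genes against PBS, with bars of 1 SE, for OVA NPs and sOVA in spleen and PP (n = 3 against 3 libraries). Filled points were called. In spleen 5 genes were called for each form of OVA, and in PP 8 were called for sOVA and 0 for OVA NPs.

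Nanoparticle-delivered and soluble OVA were then compared directly, in the different OVA forms the study used. By the loading that the paper reports for its particles, the NP dose carried the same nominal amount of OVA as the soluble dose. In spleen none of the 9 genes was called by edgeR or DESeq2 (background 0.238% of 13840 genes), and adjusted p ran from 0.353 for *Ccnd2* to 0.915 for *Cdkn2c*. *Ccnd2*, 0.25 ± 0.08 higher with NPs, was the 1 gene of the set with an unadjusted p under 0.05 (0.00820). In PP, 7 of the 9 were called, with a background of 30.1% of 15599 genes. *Ccnd1* (1.07 ± 0.19, adjusted p = 0.00298), *Ccnd2* (0.66 ± 0.10, adjusted p = 0.00192), and *Cdkn1b* (1.24 ± 0.07, adjusted p = 1.29e-04) were higher with NPs. *Ccnd3* (-0.89 ± 0.08, adjusted p = 3.01e-04), *Cdk4* (-0.52 ± 0.10, adjusted p = 0.00484), *Cdk6* (-0.45 ± 0.09, adjusted p = 0.00695), and *Cdkn2c* (-1.03 ± 0.15, adjusted p = 0.00187) were lower with NPs. The groups of these 7 genes did not overlap, as for 48.4% of all tested genes. Of the markers of other cells, 4 of 6 T cell markers were called higher with NPs than with sOVA in PP and 0 lower. For the myeloid and the epithelium and stroma markers, 2 of 6 each were called higher and 0 lower. The myeloid and the epithelium and stroma counts lay near the 30.1% of all genes called and are not a result about those lists. The T cell count lay above that share. The medians of the T cell, myeloid, and epithelium and stroma lists were 1.48, 0.88, and 0.02. The part of other cells in the 7 differences above was not tested. *Myc* differed by 0.47 ± 0.35 (adjusted p = 0.378), and without PP NP replicate 1 by 0.71 (adjusted p = 0.00280). *Cdkn1a* differed by 0.48 ± 0.20 (adjusted p = 0.0945), and without PP sOVA replicate 2 by 0.73 (adjusted p = 0.0147). This comparison shares its sOVA libraries with sOVA against PBS, so the mirrored directions in PP are not a second observation.

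Whether a treatment acted differently in the tissues was tested as an interaction over 12 libraries. For sOVA, 3 of the 9 genes were called (background 6.84% of 16541 genes), all with the PP response below the splenic one. These were *Ccnd2* (-0.85 ± 0.15, adjusted p = 0.00383), *Cdkn1b* (-0.88 ± 0.13, adjusted p = 8.51e-04), and *Myc* (-0.99 ± 0.22, adjusted p = 0.0204). The *Myc* call was lost without any 1 of spleen PBS replicates 1, 2, or 3, spleen sOVA replicate 2, or PP sOVA replicates 2 or 3, with values between -1.0 and -0.85 and adjusted p from 0.0511 to 0.0641. *Ccnd3* (0.14 ± 0.12, adjusted p = 0.574) and *Cdk4* (0.02 ± 0.11, adjusted p = 0.971) gave small differences between the tissues. For OVA NPs, *Ccnd3* (-0.68 ± 0.11, adjusted p = 0.00599) and *Cdkn2c* (-1.21 ± 0.22, adjusted p = 0.00955) were called, against a background of 4.42% of 16619 genes, and both had risen in spleen without a call in PP.

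In PBS-treated mice, 7 of the 9 genes differed between PP and spleen, with 45.6% of 15463 genes called. *Cdkn1a* (3.97 ± 0.29, adjusted p = 4.92e-06), *Ccnd1* (2.75 ± 0.29, adjusted p = 5.11e-05), *Cdkn2c* (1.80 ± 0.12, adjusted p = 2.71e-06), *Ccnd3* (1.15 ± 0.09, adjusted p = 7.44e-06), and *Myc* (0.73 ± 0.17, adjusted p = 0.0120) were higher in PP. *Cdk6* (-0.90 ± 0.11, adjusted p = 2.23e-04) and *Cdkn1b* (-0.66 ± 0.09, adjusted p = 3.40e-04) were lower there. *Ccnd2* and *Cdk4* differed between the tissues by -0.07 ± 0.09 and 0.06 ± 0.06. The sOVA tissue comparison called 7 of 9 (background 51.1%) and the NP one 8 of 9 (background 37.1%). *Ccnd1*, *Ccnd3*, *Cdkn1a*, and *Cdkn2c* were higher in PP in each of the 3 treatments, and *Cdkn1b* was lower in each. For *Cdkn1a* the tissue difference was 3.65 ± 0.31 after sOVA and 3.88 ± 0.18 after OVA NPs. For *Ccnd1* it was 1.81 ± 0.30 and 2.48 ± 0.20, and for *Ccnd3* 1.27 ± 0.07 and 0.48 ± 0.07. For *Cdkn1b* it was -1.55 ± 0.07 after sOVA and -0.37 ± 0.06 after OVA NPs. *Ccnd2* was lower in PP after sOVA (-0.93 ± 0.10, adjusted p = 6.69e-05) and after OVA NPs (-0.47 ± 0.07, adjusted p = 5.03e-04). *Myc* was lower in PP after sOVA (-0.27 ± 0.10, adjusted p = 0.0419), a call that survived the loss of PP sOVA replicate 1 but of no other library, with the remaining 5 fits giving values between -0.31 and -0.18 and adjusted p from 0.0527 to 0.180. After OVA NPs it differed by 0.29 ± 0.33 (adjusted p = 0.530), or by 0.57 (adjusted p = 1.98e-04) without PP NP replicate 1. After OVA NPs *Cdk4* was lower in PP (-0.32 ± 0.10, adjusted p = 0.0304) and *Cdkn2c* higher (0.59 ± 0.17, adjusted p = 0.0214). The *Cdk4* call was lost without spleen NP replicate 1 (-0.26, adjusted p = 0.0985), spleen NP replicate 2 (-0.31, adjusted p = 0.0905), or PP NP replicate 1 (-0.23, adjusted p = 0.0367). The *Cdkn2c* call was lost without spleen NP replicate 2 (0.55, adjusted p = 0.0843), spleen NP replicate 3 (0.51, adjusted p = 0.0841), PP NP replicate 2 (0.59, adjusted p = 0.0521), or PP NP replicate 3 (0.44, adjusted p = 0.0571). *Cdk6* was lower in PP after OVA NPs (-0.98 ± 0.12, adjusted p = 4.47e-04), whereas after sOVA it differed by -0.33 ± 0.15 (adjusted p = 0.108), or by -0.50 (adjusted p = 0.00123) without spleen sOVA replicate 1.

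**Figure D4:**
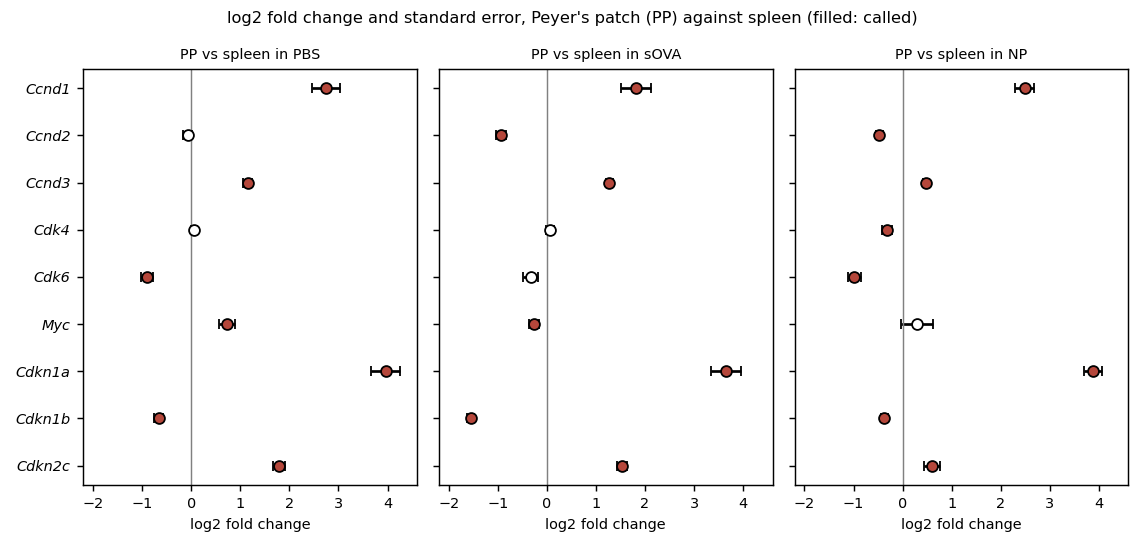
log2 fold changes (horizontal axis) of the 9 genes in PP against spleen, with bars of 1 SE, within PBS, sOVA, and OVA NP mice (n = 3 against 3 libraries). Filled points were called. *Cdkn1a* and *Ccnd1* lay farthest to the right in each panel, and *Cdkn1b* was left of 0 in each.

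Transcripts of other cells also differed between the tissues, not all in the same direction. Of the 6 epithelium and stroma markers, *Krt8* and *Vil1* held 0 to 4 and 0 to 2 counts in the spleen libraries and 705 to 5020 and 644 to 6470 counts in the PP libraries. The 6 markers summed to 170 to 252 CPM in spleen, nearly all of it *Pecam1*, which B cells also express, and to 258 to 737 CPM in PP. *Cdkn1a* held 10 to 26 counts per spleen library. Its most similar genes over the 18 libraries were *Myo15b* (Pearson r = 0.99), *Chga* (0.99), and *Myh14* (0.99). These r values, and those for *Ccnd1* below, include the difference in level between the tissues. *Chga* encodes chromogranin A of endocrine cells and held at most 2 counts in a spleen library and 175 to 1207 in a PP library. Within the 9 PP libraries, *Cdkn1a* and the epithelial sum had r = 0.66 and a Spearman rank correlation of 0.40. The PP library with the lowest sum, sOVA replicate 1 at 258 CPM, also had the lowest *Cdkn1a*, 7.9 CPM. PP sOVA replicate 3, with a sum of 636 CPM, had 9.7 CPM. Over the same 9 libraries *Cdkn1a* and the myeloid sum had r = 0.69 and a rank correlation of 0.73, values no lower than those for epithelium. For the erythroid sum these values were 0.75 and 0.70, and for the T cell sum 0.52 and 0.55. For *Ccnd1* the most similar genes were *Tmem176a*, *Aldh1a2*, and *Tmem176b* (r = 0.99, 0.98, and 0.98), and *Aldh1a2*, the retinoic acid enzyme of gut dendritic cells, held 0 to 5 counts in spleen and 23 to 103 in PP. T cell markers summed to 1.42 to 4.17 CPM in spleen and 5.25 to 29.0 CPM in PP, where the NP libraries (20.2 to 29.0) lay above PBS (9.23 to 14.3) and sOVA (5.25 to 11.3). Myeloid markers summed to 40.6 to 236 CPM in spleen and 95.5 to 234 CPM in PP. In spleen 4 of 7 fell after sOVA and 2 of 7 after OVA NPs, beside 17.2% and 15% of all genes called. Between the tissues in PBS mice, 0 of 7 were higher and 4 lower in PP (median -0.67), beside 45.6% of all genes called. The part of these cells in the differences of *Cdkn1a* and *Ccnd1* was not tested.

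The downstream genes of the RB pathway moved with *Ccnd3*. The counts of listed genes here and below stand beside the 15% of all tested genes called after OVA NPs in spleen, 17.2% after sOVA in spleen, and 27.4% after sOVA in PP. Of 19 genes of the RB, E2F, and cyclin E axis, 13 rose and 1 fell after OVA NPs in spleen, 11 rose and 0 fell after sOVA in spleen, and 16 rose and 1 fell after sOVA in PP, with list medians of 0.34, 0.32, and 0.75 where the median of all tested genes was 0.00, -0.01, and -0.02. *Ccne2*, a cyclin E, rose by 1.5 ± 0.18, 1.38 ± 0.15, and 1.47 ± 0.15 in the 3 comparisons, and the repressor *E2f8* by 1.22 ± 0.20, 1.21 ± 0.12, and 1.27 ± 0.10. All 16 S phase and mitosis genes rose in each of the 3 comparisons (medians 1.07, 1.08, and 0.99). For OVA NPs in PP, 0 of the 19 and 0 of the 16 genes were called, with medians of 0.01 and -0.17. The summed level of the S phase and mitosis genes was 1032 to 1167 CPM in PBS spleen, 1922 to 2499.6 CPM in the OVA-treated spleens, 2144 to 3354 CPM in PP after PBS or NPs, and 5928 to 6433 CPM in PP after sOVA. Over the 9 libraries of a tissue, this sum followed *Ccnd3* with r = 0.97 in spleen and 0.99 in PP and ran against *Cdkn1b* with r = -0.94 in both, a description in which the points share the same 3 treatment groups.

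Germinal center markers moved in the same libraries. Of the 8 markers, 7 rose after OVA NPs in spleen, 8 after sOVA in spleen, and 7 after sOVA in PP (medians 2.53, 2.90, and 0.67). Summed germinal center markers ran from 111 to 179 CPM in PBS spleen and from 357 to 514 CPM in OVA-treated spleen, and in PP from 812 to 1281 CPM after PBS or NPs and from 1969 to 2037 CPM after sOVA. PP NP replicate 1, the library with the lowest *Myc*, also had the lowest germinal center sum in PP (812 CPM). *Myc* did not follow this sum over the 9 libraries of a tissue, however (r = -0.27 in PP and 0.21 in spleen). The PP sOVA libraries, with the highest sums, had *Myc* at 74.5 to 96.2 CPM. The part of germinal center cell number in the changes of *Ccnd3*, *Cdkn2c*, and *Cdkn1b* was not tested.

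**Figure D5:**
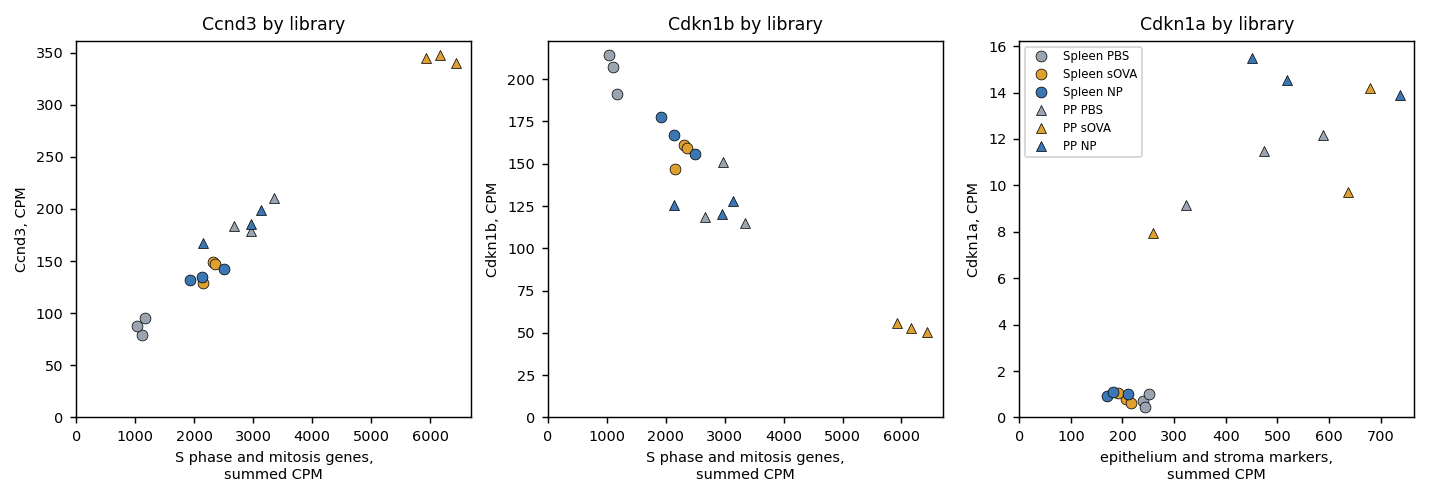
Levels of *Ccnd3*, *Cdkn1b*, and *Cdkn1a* in CPM (vertical axes) against summed CPM of the 16 S phase and mitosis genes or the 6 epithelium and stroma markers (horizontal axes) in the 18 libraries, circles for spleen and triangles for PP. *Ccnd3* increased and *Cdkn1b* decreased along the proliferation sum, and *Cdkn1a* was at 7.9 CPM or more in the PP libraries alone.

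MYC target genes rose in comparisons in which *Myc* itself was not called or fell. Of 20 listed targets, 9 rose and 0 fell after OVA NPs in spleen and 13 rose and 0 fell after sOVA in spleen (medians 0.26 and 0.31), where *Myc* was not called. After sOVA in PP, 12 rose and 0 fell (median 0.37), where *Myc* fell, a call lost under 4 alternatives. The nuclear transport GTPase *Ran* rose by 0.52 ± 0.07, 0.58 ± 0.07, and 0.69 ± 0.07 in these comparisons, and *Ldha*, a lactate dehydrogenase subunit, by 0.47 ± 0.06, 0.54 ± 0.06, and 0.56 ± 0.09. Over the 9 libraries of a tissue, the summed targets followed *Cdk4* with r = 0.95 in spleen and 0.96 in PP, and followed *Myc* with r = 0.30 and -0.24. Among the 12 MYC, MAX, and MXD partners, 2 rose and 1 fell after OVA NPs in spleen, 1 rose and 2 fell after sOVA in spleen, and of 11 tested 1 rose and 1 fell after sOVA in PP (medians -0.04, -0.08, and -0.19). These counts lay near or below the 15%, 17.2%, and 27.4% of all genes called and are not a result about the list. *Mxd3*, a MAX-binding repressor, rose by 2.00 ± 0.22 after OVA NPs in spleen, 2.3 ± 0.19 after sOVA in spleen, and 0.76 ± 0.10 after sOVA in PP, while the antagonist *Mxi1* fell in spleen after OVA NPs (-0.27 ± 0.09) and sOVA (-0.35 ± 0.10).

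Of 12 FOXO and quiescence genes, the list nearest to *Cdkn1b* in known regulation, 4 fell and 0 rose in spleen after each form of OVA, and 9 fell and 0 rose in PP after sOVA (medians -0.23, -0.17, and -0.89), beside 15%, 17.2%, and 27.4% of all genes called in either direction. *Klf2*, which keeps resting lymphocytes quiescent, fell by 0.49 ± 0.07 after OVA NPs and 0.52 ± 0.08 after sOVA in spleen, and by 1.86 ± 0.32 after sOVA in PP. *Pik3ip1*, an inhibitor of PI3 kinase, fell by 0.57 ± 0.08 after OVA NPs in spleen and by 1.12 ± 0.20 after sOVA in PP. In PP, 8 of the 12 were higher with NPs than with sOVA and 0 lower (30.1% of all genes called). For the p53 targets, the list of *Cdkn1a*, 1 of 13 rose and 2 fell after OVA NPs in spleen, 0 of 12 rose and 1 fell after sOVA in spleen, and 1 of 13 rose and 4 fell after sOVA in PP (medians 0.04, 0.01, and 0.04). These counts lay near the shares of all genes called (15%, 17.2%, and 27.4%) and are not a result about the list. The p53-inducible genes *Pmaip1* (-0.70 ± 0.12) and *Btg2* (-1.15 ± 0.18) were among those that fell in PP. Of the 9 other CDK inhibitors and D cyclin turnover genes, 0 of 7 tested were called in spleen after either form of OVA (medians -0.12 and -0.05), and of 9 tested in PP 1 rose and 1 fell after sOVA (median 0.03), below the 27.4% of all genes called. There *Cdkn2d*, the inhibitor p19, rose by 0.46 ± 0.09 and *Fbxw7*, a ubiquitin ligase subunit for cyclin E and MYC, fell by 0.46 ± 0.09.

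Among the 9 genes themselves, *Ccnd3* and *Cdkn2c* varied most alike, with r = 0.99 over the 18 libraries and 0.98 within each tissue. *Ccnd3* and *Cdkn1b* ran opposite to each other (r = -0.89 in spleen and -0.98 in PP). *Ccnd2* followed *Ccnd3* in spleen (r = 0.82) and ran against it in PP (r = -0.88), over 9 libraries each. By the same measure over 18 libraries and 12135 ranked genes, those most like *Ccnd3* included *Glrx3* and *Incenp* (each 0.99), and those most like *Cdkn2c* were *Hmgb2*, *Cdca8*, and *Asf1b* (each 0.995). *Arap2*, *Bcl3*, and *Dock10* came closest to *Ccnd2* (0.93, 0.93, and 0.92), and *Zmynd11*, *P2ry10b*, and *Ube2d1* to *Cdkn1b* (each 0.99). *Hars*, *Impdh2*, and *Naca* came closest to *Cdk4* (0.96, 0.95, and 0.95), *Nedd4*, *Pnpt1*, and *Cul4a* to *Cdk6* (0.95, 0.94, and 0.93), and *Snhg15*, *Mafk*, and *Irf4* to *Myc* (0.92, 0.92, and 0.90). These correlations are descriptions in which libraries of a group share tissue and treatment.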

How the data were processed

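RNA from B cells of spleen and Peyer's patches was measured in 18 libraries. The authors trimmed reads with Cutadapt 2.3, aligned them with STAR 2.7.8a to GRCm38, and estimated gene levels with RSEM 1.3.3. The deposited values are expected counts per gene, all whole numbers, so rounding changed none. How strand was used in counting is not given in the sources used here. Groups came from the sample labels, which give no batch. With edgeR 4.0.16 in R 4.3.3, genes passing filterByExpr (minimum count 10, minimum total 15) were scaled by TMM and tested by robust quasi-likelihood F tests in the 6 libraries of each comparison, or 12 for an interaction, with Benjamini-Hochberg adjustment over all genes tested. The fold cutoff of 0.25 was the study's, and was not applied to interactions. Gene positions and lengths were from GENCODE annotation of GRCm38. The scripts were tested on simulated counts with known changes. Replicate pairs were checked for duplicate libraries, and none agreed within sampling noise. In no comparison did all 3 same-numbered pairs of libraries deviate together, so no pairing was used. This does not exclude that such libraries came from the same mouse. Alternatives were DESeq2 1.42.0, relative log expression size factors, no low-count filter, 1 fit over all libraries, a replicate block, and leaving out each library. The 9 genes and all gene lists were chosen with earlier results of these data known. All 9 genes are reported in every comparison. Up to 3 called genes with the largest fold change and a mean of at least 1 CPM were eligible from each list, as were the 3 most correlated genes with a mean of at least 1 CPM for each of the 9. Some of these genes are not reported here. The edgeR and DESeq2 p-values set a group difference against the spread between libraries of a group. The labels do not say whether each library held cells of 1 mouse or of several.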

Additional observations from a re-analysis of the deposited data

Results flagged for a closer look

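In 5 cases a G1 gene was called in edgeR's test of a difference between the tissues in a treatment effect, each over 12 libraries. Of all tested genes, 4.42% were called for OVA NPs and 6.84% for sOVA. *Ccnd3* and *Cdkn2c* responded less to OVA NPs in PP than in spleen, with interaction log2 values of -0.68 (adjusted p = 0.00599) and -1.21 (adjusted p = 0.00955). Their splenic NP changes were 0.65 and 1.11, and those in PP were -0.05 and -0.11. For sOVA the interaction values were -0.85 for *Ccnd2* (adjusted p = 0.00383), -0.88 for *Cdkn1b* (adjusted p = 8.51e-04), and -0.99 for *Myc* (adjusted p = 0.0204). *Ccnd2* rose in spleen by 0.39 and fell in PP by 0.47 on the log2 scale, *Cdkn1b* fell in both tissues by 0.39 and 1.28, and *Myc* was not called in spleen (0.06) and fell in PP by 0.93. The *Myc* interaction call was lost under 8 alternatives. The PP calls of *Ccnd2* and *Myc* after sOVA were lost under 5 and 4 alternatives.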

How the results depend on the processing

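Of the 52 calls among 99 gene-by-comparison pairs, 42 held under every alternative run and 0 changed direction. Calls were lost for 10 pairs, all given above with the libraries concerned except where the alternative was another fit. The interaction of tissue and OVA NPs had 4 of the 9 genes called by DESeq2 against 2 by edgeR. Left-out libraries gave 3 to 6 called genes for OVA NPs in spleen and 5 to 8 for sOVA in PP. With a fit over all 18 libraries, *Cdk4* was not called for OVA NPs in spleen (adjusted p = 0.0848), nor *Myc* between the tissues after sOVA (adjusted p = 0.400) or in its interaction (adjusted p = 0.125). The sOVA tissue call of *Myc* was also lost with DESeq2 (adjusted p = 0.0523) and relative log expression factors (adjusted p = 0.0570), and its sOVA interaction without the low-count filter (adjusted p = 0.0550). Without a low-count filter *Myc* lost its PBS tissue call (adjusted p = 0.0749). No comparison had all 3 same-number correlations over 0.1, and no pairing was used. With 3 libraries per group, this check cannot show whether same-numbered libraries came from the same mouse. With the replicate block, 5 of the 9 genes were called for sOVA in PP, where *Ccnd1*, *Ccnd2*, and *Myc* had adjusted p of 0.0693, 0.0914, and 0.0639, and 6 of 9 between tissues after OVA NPs, where *Cdk4* and *Cdkn2c* had adjusted p of 0.0680 and 0.0643. *Cdk6* was called for OVA NPs in spleen with DESeq2 (adjusted p = 0.0309), without the low-count filter (adjusted p = 9.61e-04), and with the replicate block (adjusted p = 0.00592). Without the low-count filter the splenic NP value of *Myc* was -0.00133. Left-out libraries changed the sign of uncalled values, with these ranges: the *Ccnd2* share for OVA NPs in spleen from -1.21 to 0.69 percentage points, *Myc* in spleen from -0.0409 to 0.10 for OVA NPs and from -0.10 to 0.0367 for NPs against sOVA, *Cdkn2c* there from -0.17 to 0.0604, and for sOVA in spleen *Ccnd1* from -0.20 to 0.41, *Cdk6* from -0.0788 to 0.22, and *Cdkn1a* from -0.00957 to 0.56. In PP the ranges were -0.0933 to 0.0323 for *Ccnd3*, -0.0945 to 0.11 for *Cdkn1b*, and -0.27 to 0.0407 for *Cdkn2c* after OVA NPs, and -0.28 to 0.14 for *Cdkn1a* after sOVA. For the interactions they were -0.20 to 0.0107 for *Cdk6* and -0.40 to 0.16 for *Cdkn1a* with OVA NPs, and -0.0220 to 0.12 for *Cdk4* with sOVA. The cause of these shifts was not tested. Depth limited *Ccnd1* and *Cdkn1a* in spleen, with 24 to 69 and 10 to 26 counts per library.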

Other observations

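Plasma cell markers, which the comparisons above did not use, ran beside *Ccnd2* in spleen. Their summed level was 375 to 432 CPM after PBS, 482 to 551 CPM after sOVA, and 600.0 to 617 CPM after OVA NPs, and over the 9 spleen libraries it followed *Ccnd2* with r = 0.95. Of the 5 markers, 2 rose after OVA NPs in spleen, and 2 rose and 1 fell after sOVA, beside 15% and 17.2% of all genes called. *Xbp1*, a transcription factor of secretory cells, rose by 0.81 ± 0.07 after OVA NPs and 0.62 ± 0.07 after sOVA, and *Jchain*, the joining chain of secreted IgM and IgA, by 1.49 ± 0.21 and 1.08 ± 0.22. In PP the same sum ran from 854 to 1085 CPM with overlapping groups, and followed *Ccnd2* with r = 0.69. *Irf4*, also on this list and among the genes most like *Myc*, fell with sOVA in spleen (-0.31 ± 0.06) and in PP (-1.30 ± 0.23).

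Of 7 markers of B-1 and marginal zone cells, 1 rose and 3 fell after OVA NPs in spleen, and 2 rose and 3 fell after sOVA. In PP, 1 rose and 3 fell after sOVA. The shares of all genes called in these comparisons were 15%, 17.2%, and 27.4%. *Zbtb32* rose with sOVA in spleen (0.65 ± 0.12) and in PP (1.22 ± 0.16), while *Cd9* fell in both (-0.54 ± 0.11 and -1.36 ± 0.24). Their summed level followed *Cdkn1b* with r = 0.76 over the 9 spleen libraries and 0.98 over the 9 PP libraries. Most of this sum was *Cr2* and *Dtx1*, so r mainly describes these genes and not the list. Their means were 1463 and 441 CPM in PBS spleen, where the sum was 1880 to 2068 CPM. In PBS PP they were 706 and 221 CPM, where the sum was 938 to 1081 CPM. Erythroid markers summed to 3.75 to 17.1 CPM in spleen and 0.035 to 1.78 CPM in PP.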
